A study of Mus musculus with 10 samples.

Results

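The 35 genes described here are the histone deacetylases and sirtuins, the histone methyltransferases and demethylases, the DNA methyltransferases and TET dioxygenases, and the subunits of chromatin remodelling complexes listed below by role. They were taken by symbol from the count files, where 35 of 35 listed symbols occur among 32531 gene symbols. The libraries were made from whole striatum of the adult mouse line Drd2-TRAP CP101, whose transgene is Drd2-EGFP/Rpl10a. In this line the ribosomal protein L10a is fused to EGFP and driven by Drd2 regulatory sequence, so that ribosomes of cells with the D2 dopamine receptor, mainly indirect-pathway medium spiny neurons, can be captured with anti-EGFP antibodies (translating ribosome affinity purification, TRAP). All groups share this line and tissue, and all mice took part in short access intravenous self-administration.

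The groups are 3 captured (IP) libraries of mice that self-administered saline, numbered 1, 2 and 4, and 5 IP libraries of mice that self-administered cocaine, numbered 1 to 5. The single saline input library is striatal RNA before capture, and the single cocaine unbound library is the RNA left after capture. The labels give no sex, session length or number of mice per library, and do not say whether libraries come from separate mice, and the p-values below therefore reflect only how far these libraries spread, which may be technical. Cells other than indirect-pathway neurons that use the Drd2 promoter, such as cholinergic interneurons, also carry the tag. Both reference libraries were sequenced under lane code 1 and no IP library was, so lane and fraction cannot be told apart in the ratios below.

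Deacetylases remove acetyl groups from histone tails (class I in nuclear corepressor complexes, class IIa shuttling between nucleus and cytoplasm in response to calcium and cAMP signals), and sirtuins do so with NAD as a cofactor. Methyltransferases such as the G9a pair Ehmt1 and Ehmt2 and the polycomb pair Ezh1 and Ezh2 place repressive histone marks, DNA methyltransferases methylate cytosine and TET enzymes oxidise that methyl group, while BAF and NuRD complexes move nucleosomes with ATP. In the striatum, class I and class IIa deacetylases, G9a and DNA methylation have been studied for their part in lasting responses to cocaine.

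Reads assigned to genes numbered 22975667 to 31631137 per IP library, 18408782 in the saline input and 20882691 in the cocaine unbound library, so that 3 reads, the limit that a count of 0 allows, correspond to 0.0948 to 0.131 CPM (a gene's reads per unit of library size) in an IP library. Levels are CPM with library sizes scaled by edgeR's TMM factors. Drd2 had 2447 ± 239 CPM in saline IP (SD, n = 3) and 2031 ± 368 in cocaine IP (n = 5), against 358 in the input and 352 unbound, and Drd1, the receptor of direct-pathway neurons, at 39.0 ± 5.87 and 42.8 ± 9.43 against 387 and 280. The summed level of 6 astrocyte markers ranged from 46.6 to 148 CPM over the IP libraries against 1752 in the input and 1642 in unbound RNA, and that of 6 oligodendrocyte markers from 187 to 383 against 4121 and 4422. Summed levels of 6 microglia markers (2.83 to 7.67 CPM in IP, 55.6 and 46.6 in the references), 6 endothelial and mural markers (1.07 to 3.70, 21.2 and 15.1) and 6 GABA interneuron markers (6.73 to 15.9, 219 and 199) were also lower in IP. The 5 cholinergic interneuron markers summed to 16.6 to 40.4 CPM in IP, 51.6 in the input and 35.6 in unbound RNA, and none of these markers was at 0 in all IP libraries. Intervals and limits given here cover counting error only.

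Start-site windows of these genes were described by their CG pairs and short motifs. RefSeq (GRCm38.p6) windows from 250 bases before to 50 bases after the start were matched by symbol for 31 of the 35 genes, and where a gene had several the one with most CG pairs was used, for these genes as for all others. The median window of these genes held 31 CG pairs (range 3 to 57), against 8 over 27025 genes with a window, whether or not measured here. The GC box GGGCGG, searched on both strands, was in 25 of 31 windows (80.6%) against 37.3% of all genes' windows, and the full cAMP response element TGACGTCA was in 0 of 31 against 1.88%. The 4 windows printed below belong to Hdac2, the deacetylase with the highest level per kilobase, and to the 3 genes called lower in both comparisons below, each IP library against its own reference, Hdac7, Hdac9 and Ezh2. They are at chr10:36974294-36974593 (plus strand), chr15:97831718-97832017, chr12:34528840-34529139 and chr6:47594981-47595280 (each minus strand), with every CG pair in capitals.
Hdac2: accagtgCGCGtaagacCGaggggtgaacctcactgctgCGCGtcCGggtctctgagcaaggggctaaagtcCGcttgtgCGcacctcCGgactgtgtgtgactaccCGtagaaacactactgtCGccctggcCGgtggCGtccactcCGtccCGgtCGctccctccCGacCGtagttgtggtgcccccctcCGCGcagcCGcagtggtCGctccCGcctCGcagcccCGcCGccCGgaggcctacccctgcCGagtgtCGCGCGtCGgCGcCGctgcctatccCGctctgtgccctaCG
Hdac7: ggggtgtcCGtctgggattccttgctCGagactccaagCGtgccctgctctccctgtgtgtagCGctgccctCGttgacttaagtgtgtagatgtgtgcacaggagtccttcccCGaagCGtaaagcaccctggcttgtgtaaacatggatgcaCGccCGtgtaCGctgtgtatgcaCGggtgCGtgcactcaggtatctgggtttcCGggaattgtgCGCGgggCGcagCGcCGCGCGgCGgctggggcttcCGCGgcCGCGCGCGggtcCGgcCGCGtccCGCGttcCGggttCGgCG
Hdac9: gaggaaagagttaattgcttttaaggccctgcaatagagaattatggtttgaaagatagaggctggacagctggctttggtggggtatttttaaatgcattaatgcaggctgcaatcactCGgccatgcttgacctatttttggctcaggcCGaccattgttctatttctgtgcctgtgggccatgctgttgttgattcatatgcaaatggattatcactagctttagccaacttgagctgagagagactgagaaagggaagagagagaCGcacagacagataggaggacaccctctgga
Ezh2: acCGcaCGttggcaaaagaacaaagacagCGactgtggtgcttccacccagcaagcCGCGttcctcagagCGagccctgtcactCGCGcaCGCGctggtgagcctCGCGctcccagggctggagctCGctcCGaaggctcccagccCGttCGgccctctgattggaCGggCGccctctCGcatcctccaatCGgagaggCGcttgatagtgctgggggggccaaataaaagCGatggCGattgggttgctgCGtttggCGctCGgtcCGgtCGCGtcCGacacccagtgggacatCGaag
The Hdac2, Hdac7 and Ezh2 windows hold 36, 35 and 31 CG pairs, while that of Hdac9 holds 3, the lowest count among the 31 genes. Of these windows only that of Hdac2 holds the GC box. The Hdac7 and Hdac9 windows lie within the gene models (chr15:97792664-97844502 and chr12:34047580-34917095, minus strand), not at the ends where the models begin. Their CG counts describe those inner starts only.

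All but 1 of the 35 genes were measured at a mean of at least 1 CPM. The exception was Dnmt3b, a de novo DNA methyltransferase, with 1, 1 and 3 reads in the saline IP libraries, 3 to 9 in the cocaine IP libraries, 15 in the input and 3 unbound, which is at or near the limit of detection. Between genes, levels were compared per kilobase of exon model (CPM per kb). In saline IP, 8 genes exceeded 20 CPM per kb and 11 were below 3. Hdac2 was at 90.8 ± 7.12 CPM per kb (n = 3), above 96.6% of the 17936 genes with a length, and Smarca2, an ATPase of the BAF complex, at 78.0 ± 7.56, above 95.9%. The values of these 2 genes overlapped at their edges, and both means were above those of the other 33 genes.

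The other roles spanned a wide range of levels. Hdac11, the sole class IV deacetylase, was at 45.9 ± 5.60 CPM per kb in saline IP, Smarcc2, a BAF scaffold subunit, at 46.0 ± 4.24, and Sirt2, a largely cytoplasmic sirtuin abundant in myelinating cells, at 36.9 ± 4.93, so that these 3 overlapped. Kdm6b, which removes the polycomb mark, followed at 31.4 ± 11.8 and Chd4, the NuRD ATPase, at 29.3 ± 1.39. The highest methyltransferase by its mean was Ezh1 at 10.8 ± 0.747, which Kmt2a (9.86 ± 1.74) and Ehmt2 (9.44 ± 1.95) overlapped, and the highest class IIa deacetylase Hdac5 at 7.04 ± 1.87. Dnmt3a was at 7.66 ± 0.936, Tet2 at 5.71 ± 0.497 and Tet3 at 5.23 ± 0.402 CPM per kb. At the low end stood Hdac7 at 0.539 ± 0.0414 and Hdac10 at 0.423 ± 0.0594.

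**Figure D1:**
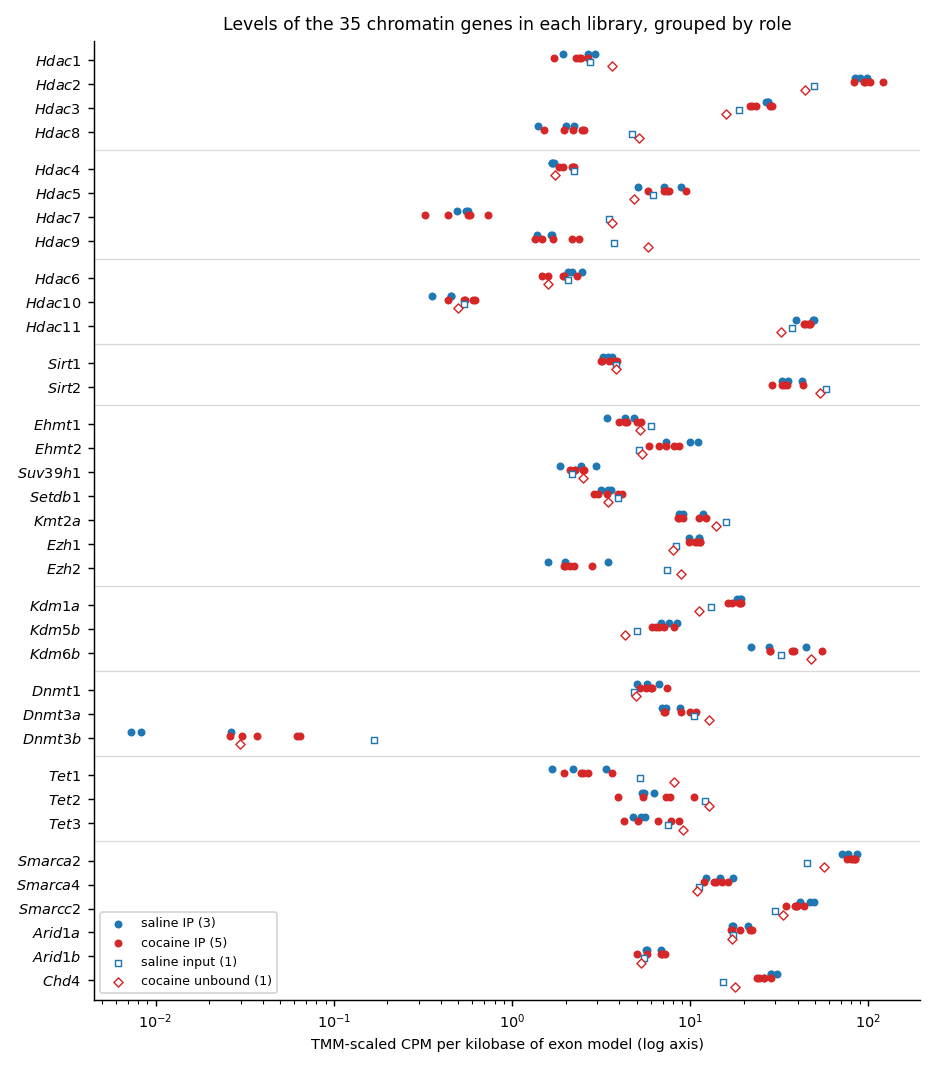
Level of each of the 35 genes (TMM-scaled CPM per kilobase of exon model, log axis) in each library; filled circles are IP libraries (blue saline, red cocaine), the open square is the saline input and the open diamond the cocaine unbound library, and grey lines separate the roles. Hdac2 and Smarca2 lie furthest right, Dnmt3b furthest left, and Hdac7, Hdac9 and Ezh2 show IP points to the left of both references.

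In captured RNA, the genes fell on both sides of the references, and the clearest separations were towards lower levels. Saline IP libraries were compared with the input and cocaine IP libraries with the unbound library. In both comparisons each IP library was 2-fold or more below its own reference for Hdac7, Hdac9 and Ezh2, and in the second also for Tet1, whereas none of the 34 measured genes was past 2-fold in the upward direction throughout either comparison. Among 12894 genes tested against the input, 11.8% were 2-fold lower in all 3 saline IP libraries and 1.45% higher, and among 12655 tested against the unbound library, 9.85% were 2-fold lower in all 5 cocaine IP libraries and 3.73% higher. The counts of 3 and 4 of 34 (8.82% and 11.8%) are thus near the background, as are the 3 genes lower in both comparisons beside 8.54% of the 12558 genes tested in both. Of all genes called against the unbound library, 27.5% were higher, or 14.3% with scaling by library size alone. Ratios are log2(CPM + 1) of an IP library minus that of the reference, with the SD over IP libraries, and each reference is 1 library, so no p-value is given. The median ratio of the 34 genes was -0.01 against the input and 0.12 against the unbound library, beside 0.10 and 0.16 over all genes tested. In these bulk samples, fewer cells of a type and less RNA per cell cannot be told apart.

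Counted by direction alone, 14 of 34 genes were above the input in all 3 saline IP libraries (background 42.9%) and 15 were below it (33.7%), while 14 were above the unbound library in all 5 cocaine IP libraries (43.9%) and 11 below it (30.2%). In both comparisons together, 12 of 34 genes (35.3%) were above their own reference in every IP library, beside 35.5% of all genes tested in both, and 10 (29.4%) were below it, beside 24.6%. Those above were Hdac2, Hdac3, Hdac11, Ehmt2, Ezh1, Kdm1a, Kdm5b, Dnmt1, Smarca2, Smarca4, Smarcc2 and Chd4. Those below were Hdac7, Hdac8, Hdac9, Sirt2, Kmt2a, Ezh2, Dnmt3a, Tet1, Tet2 and Tet3. With scaling by library size alone, the median of all genes fell to -0.095 against the input and -0.011 against the unbound library. Of the 34 genes, 9 were then above and 16 below the input in every IP library, and 9 were above and 14 below the unbound library. The matching shares of all genes were not counted under that scaling, so these counts are not read as particular to the 34 genes. Under that scaling the mean ratio changed sign for Hdac5, Hdac6, Suv39h1, Arid1a and Arid1b against the input and for Hdac10 and Arid1a against the unbound library.

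**Figure D2:**
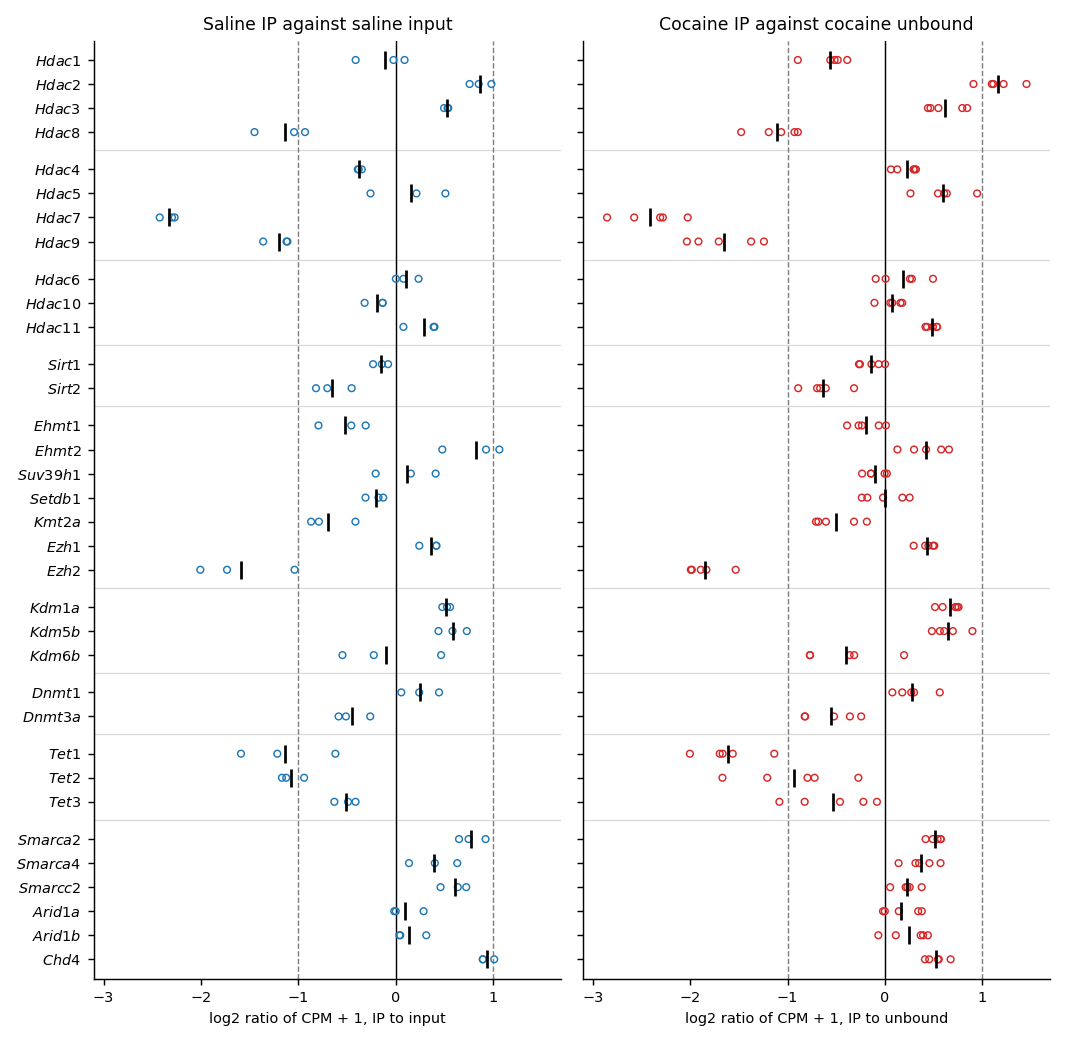
Log2 ratio (CPM + 1) of each IP library to its reference for the 34 measured genes, saline IP to input on the left (3 circles per gene) and cocaine IP to unbound on the right (5 circles); black ticks are means and dashed lines mark 2-fold. Hdac7, Hdac9 and Ezh2 lie wholly to the left of the lower dashed line in both panels, and Hdac2 is the gene furthest to the right against the unbound library.

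Among class I deacetylases, Hdac2 had the highest level per kilobase and the highest ratios to both references. It was at 357, 380 and 416 CPM in saline IP, at 349, 402, 398, 433 and 510 in cocaine IP, at 210 in the input and at 185 in the unbound library. Every IP library was above both references, with ratios of 0.86 ± 0.11 and 1.16 ± 0.20, higher than those of 93.4% and 94.6% of all genes tested. Against the unbound library only cocaine IP library 1 was short of 2-fold, and the mean of the 4 remaining libraries was 1.22. A call is easier with fewer libraries, since leaving out 1 cocaine IP library gave 477 to 705 genes higher, against 472 with all of them. Hdac3, the catalytic subunit of NCoR and SMRT corepressors, gave ratios of 0.52 ± 0.02 and 0.62 ± 0.19, again above in every IP library. Hdac8, which also deacetylates cohesin, was lower in every IP library (3.63 ± 0.833 and 4.13 ± 0.795 CPM against 9.09 and 9.97), with ratios of -1.14 ± 0.27 and -1.11 ± 0.24. Against the input only saline IP library 2 was short of 2-fold for Hdac8, and the mean without that library was -1.25.

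Hdac1, the close paralog of Hdac2, was at 5.13 ± 1.07 CPM in saline IP and 4.69 ± 0.713 in cocaine IP, against 5.56 in the input and 7.38 in unbound RNA. This level is uncertain, because 58.7% of the 50-base stretches of its transcripts also occur in transcripts of other genes, 56.4% in those of Gm10093 alone, and reads that align to several places were left out of the gene counts. This share was under 5% in 30 of the 35 genes. Besides Hdac1, the genes at 5% or more were Hdac11 (21.6%, from gene models on the opposite strand), Suv39h1 (13.1%), Dnmt3b (11.5%) and Setdb1 (9.73%). Whether the counting used strand is not given in the sources used here.

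Class IIa deacetylases, which act mainly as signal-dependent corepressors of MEF2, divided. Hdac7 (chr15:97792664-97844502, GRCm38) was at 2.44, 2.75 and 2.83 CPM in saline IP and at 2.90, 1.62, 2.18, 2.83 and 3.66 in cocaine IP. The input held 17.5 CPM (95% exact Poisson interval 15.7 to 19.4) and the unbound library 18.0 (16.3 to 19.8), so that no IP library came near either reference. The ratios of -2.33 ± 0.08 and -2.41 ± 0.32 were the lowest of the 34 genes in both comparisons.

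Hdac9 (chr12:34047580-34917095) was at 17.7, 14.8 and 17.8 CPM in saline IP and at 25.5, 15.7, 14.3, 18.2 and 23.2 in cocaine IP, against 39.7 in the input (37.0 to 42.5) and 61.8 in unbound RNA (58.6 to 65.1). Its ratios were -1.20 ± 0.14 and -1.65 ± 0.34, without overlap between IP and reference libraries. Hdac5, the class IIa member with the highest level per kilobase, was at 28.7, 49.7 and 40.3 CPM in saline IP and at 32.7, 42.7, 53.2, 40.0 and 41.9 in cocaine IP. Against the input (34.6 CPM) 1 of 3 libraries lay below and the mean ratio was 0.16 ± 0.39, while against the unbound library (27.1 CPM) all 5 lay above, at 0.60 ± 0.24. Hdac4 was below the input in every saline IP library (-0.37 ± 0.02) and above the unbound library in every cocaine IP library (0.22 ± 0.12).

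Of the remaining deacetylases, Hdac11 was at 131, 130 and 105 CPM in saline IP and 125, 121, 116, 115 and 125 in cocaine IP, above the input (98.9) and the unbound library (85.9) throughout, with ratios of 0.29 ± 0.18 and 0.48 ± 0.06. Hdac6, which deacetylates tubulin, and Hdac10, a polyamine deacetylase, had mean ratios between -0.20 and 0.19. Sirt2 was at 95.4, 80.1 and 73.8 CPM in saline IP and 96.8, 78.9, 74.1, 75.8 and 64.7 in cocaine IP, below the input (131) and the unbound library (121) in every library, with ratios of -0.66 ± 0.19 and -0.64 ± 0.21. Sirt1, a nuclear sirtuin, was near both references (-0.15 ± 0.08 and -0.14 ± 0.12).

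Within the histone methyltransferases, the paralogs of 2 pairs lay on opposite sides of the references in most libraries. Ezh2, a catalytic subunit of polycomb repressive complex 2 typical of dividing cells (chr6:47530139-47595341), was at 9.63, 4.44 and 5.58 CPM in saline IP and 7.92, 5.96, 5.48, 5.53 and 6.24 in cocaine IP, against 20.8 in the input (18.9 to 22.9) and 24.8 in unbound RNA (22.8 to 26.9). Saline IP library 1 was the highest of the 8 and still less than the input, and the ratios were -1.59 ± 0.50 and -1.85 ± 0.19. Ezh1, the paralog typical of differentiated cells, was at 60.2, 67.9 and 68.1 CPM in saline IP and 59.7, 69.2, 64.8, 66.4 and 68.6 in cocaine IP, above the input (50.7) and the unbound library (48.4) in every library, with ratios of 0.36 ± 0.10 and 0.43 ± 0.08.

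Ehmt2 (G9a) had ratios of 0.82 ± 0.31 and 0.42 ± 0.21, above both references in all 8 IP libraries. Its partner Ehmt1 (GLP) was below the input in all 3 saline IP libraries (-0.52 ± 0.25) and below the unbound library in 4 of 5 cocaine IP libraries (-0.19 ± 0.16). Kmt2a, a methyltransferase that marks active promoters, was below both references throughout (-0.69 ± 0.24 and -0.50 ± 0.23). Setdb1 and Suv39h1, which place heterochromatin marks, had mean ratios between -0.20 and 0.12. Among demethylases, Kdm1a, which acts with the CoREST corepressor (0.52 ± 0.04 and 0.67 ± 0.11), and Kdm5b, which demethylates active promoters (0.58 ± 0.15 and 0.65 ± 0.16), were above both references in every IP library.

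Kdm6b varied most between libraries of the demethylases. It was at 147, 184 and 297 CPM in saline IP and 186, 185, 255, 247 and 364 in cocaine IP, with 215 in the input and 317 in unbound RNA. The IP libraries lay on both sides of each reference (-0.10 ± 0.52 and -0.40 ± 0.40).

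Genes of DNA methylation and of its removal mostly lay below the references. Tet1 (chr10:62804570-62908996), which starts the oxidation of 5-methylcytosine as do Tet2 and Tet3, was at 48.3, 24.2 and 31.6 CPM in saline IP and 35.1, 28.2, 35.8, 38.6 and 52.2 in cocaine IP, against 74.8 in the input and 116 in unbound RNA. Its ratios were -1.14 ± 0.49 and -1.61 ± 0.31. Only saline IP library 1 was short of 2-fold against the input, so leaving it out put the remaining libraries past 2-fold (mean -1.40). Tet2 was at 50.7, 49.2 and 57.7 CPM in saline IP and 50.2, 36.2, 70.8, 67.2 and 97.0 in cocaine IP against 112 and 117, with ratios of -1.08 ± 0.12 and -0.93 ± 0.53. Against the input only saline IP library 4 was short of 2-fold for Tet2, and the mean without that library was -1.15.

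Tet3 had ratios of -0.51 ± 0.11 and -0.53 ± 0.42, so that all 3 TET genes were below their reference in all 8 IP libraries. Dnmt3a, the de novo enzyme of mature neurons, was at 68.8, 72.5 and 86.4 CPM in saline IP and 71.2, 71.0, 98.3, 87.7 and 107 in cocaine IP, against 104 and 126, with ratios of -0.45 ± 0.17 and -0.55 ± 0.26. All 8 IP libraries were below their own reference. Dnmt1, the maintenance enzyme, was above the references in every IP library (0.25 ± 0.19 and 0.28 ± 0.18).

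All 6 remodeller subunits had positive mean ratios in both comparisons under the scaling used, whereas 44.2% and 41.0% of all genes had negative ones. Of the 6, 4 (Smarca2, Smarca4, Smarcc2 and Chd4, 66.7%) were above their own reference in every IP library of both comparisons. That share was 35.5% of all genes and 15% of the 20 other CHD, ISWI and INO80 remodellers described below. Smarca2 was at 630, 521 and 558 CPM in saline IP and 616, 553, 581, 602 and 614 in cocaine IP, against 332 in the input and 413 in unbound RNA (0.77 ± 0.14 and 0.52 ± 0.07). Chd4 had the highest mean ratio to the input of the 34 genes, 0.93 ± 0.07, and 0.53 ± 0.10 to the unbound library. Smarcc2 gave 0.61 ± 0.13 and 0.23 ± 0.12, and Smarca4, the alternative BAF ATPase, 0.39 ± 0.25 and 0.37 ± 0.16. The BAF subunits Arid1a (0.09 ± 0.17 and 0.17 ± 0.19) and Arid1b (0.13 ± 0.16 and 0.25 ± 0.22) were near the references, and the mean ratio of Arid1a was negative in both comparisons, and that of Arid1b negative against the input, with scaling by library size alone.

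In the IP libraries where these genes lay below their reference, glial, vascular and GABA interneuron markers were also lower by the summed levels given above, and their part in these ratios was not tested. Across genes, the ratio was related to exon length with a Spearman rho of -0.13 (input) and -0.11 (unbound) over the 34 genes and of -0.27 and -0.32 over all genes with a length, where all genes share the same libraries.

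Comparisons within a library do not depend on the scaling between libraries, and those below were chosen after the ratios were seen. Hdac2 made up 49.96 ± 3.13% of the summed deacetylase CPM per kb in saline IP (n = 3) and 52.4 ± 2.96% in cocaine IP (n = 5), against 37.8% in the input and 36.8% unbound. Hdac2, Hdac3 and Hdac11 together made up 90.2 ± 0.839% and 89.97 ± 0.994% against 80.5% and 77.4%. All 8 IP libraries were above both references in both shares.

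The balance of some paralogs differed as well. Ezh1 exceeded Ezh2 per kilobase by 5.19 ± 2.12 times in saline IP (2.88 to 7.06) and 4.97 ± 0.858 times in cocaine IP (3.47 to 5.53), against 1.12 times in the input and 0.899 times in unbound RNA. The ratio of Ehmt2 to Ehmt1 was 2.31 ± 0.636 and 1.61 ± 0.303 against 0.857 and 1.02, and that of Tet3 to Tet1 was 2.37 ± 0.874 and 2.45 ± 0.412 against 1.44 and 1.13. In the first and second of these pairs all 8 IP libraries were above both references, while for Tet3 to Tet1 saline IP library 1, at 1.43, was just below the input. Dnmt3a to Dnmt1 went the other way, at 1.32 ± 0.052 and 1.45 ± 0.247 against 2.16 and 2.57. Smarca2 to Smarca4 (5.32 ± 0.445 and 5.78 ± 0.558 against 4.08 and 5.20) separated all saline IP libraries from the input but not all cocaine IP libraries from the unbound library. Tet2 to Tet1 (2.56 ± 0.810 and 2.59 ± 0.454 against 2.33 and 1.58) separated all cocaine IP libraries from the unbound library. It did not separate all saline IP libraries from the input. Arid1a to Arid1b was close to the references, at 3.05 ± 0.035 and 3.07 ± 0.368 against 3.14 and 3.23.

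**Figure D3:**
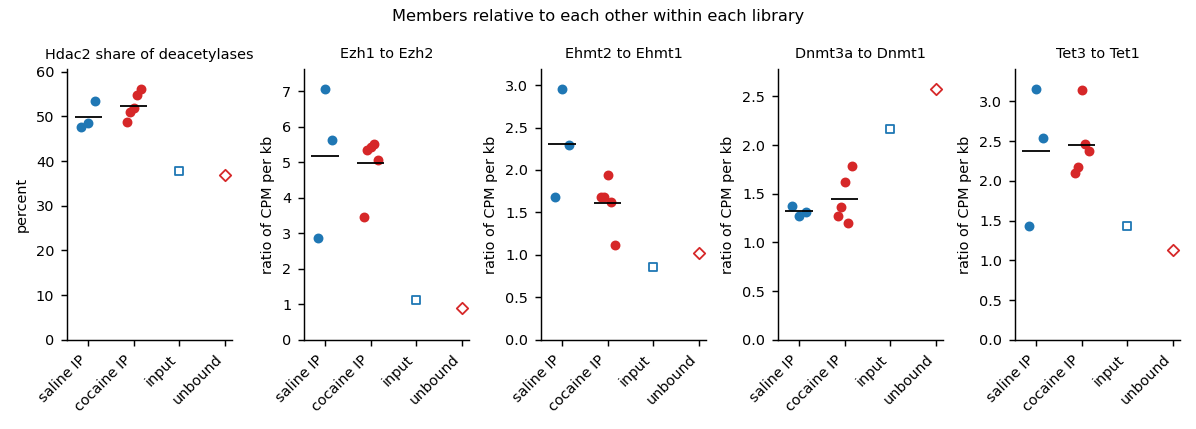
Share of Hdac2 in the summed deacetylase CPM per kb (percent) and ratios of CPM per kb between paralogs, by group; each symbol is 1 library, horizontal lines are means of IP groups, and every axis starts at 0. The Hdac2 share and the ratios of Ezh1 to Ezh2 and Ehmt2 to Ehmt1 are higher in all 8 IP libraries than in the open symbols of the references, and Dnmt3a to Dnmt1 is lower.

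Other chromatin genes were described through 9 further lists of 131 genes, of which 129 were measured. Their median ratios were 0.19 against the input and 0.15 against the unbound library, and of 129 genes 1 was 2-fold higher and 2 were lower in every IP library against the input, and 1 higher and 4 lower against the unbound library. Against the input these are 0.775% and 1.55% beside 1.45% and 11.8% of all genes, and against the unbound library 0.775% and 3.10% beside 3.73% and 9.85%, so that all 4 shares were below those of all genes. Rest, a repressor of neuronal genes that recruits deacetylases (-1.54 ± 0.48 and -1.67 ± 0.17), and Chd7, a CHD remodeller (-1.92 ± 0.11 and -2.07 ± 0.45), were lower in both. The remaining calls were Smarcd3, a neuronal BAF subunit, higher against the input (1.28 ± 0.13), Prmt1, an arginine methyltransferase, higher against the unbound library (1.60 ± 0.24), and Gatad2a (-1.29 ± 0.22) and Bcl7c (-1.67 ± 0.29), subunits of NuRD and BAF, lower against the unbound library.

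By list, the 20 measured deacetylase corepressor partners had median ratios of 0.35 and 0.32, with 13 (65%) above their own reference in every IP library of both comparisons, and the 20 other BAF subunits 0.43 and 0.21, with 12 (60%), beside 35.5% of all genes. The 20 other CHD, ISWI and INO80 remodellers had medians of -0.02 and -0.15, with 3 (15%) above their own reference throughout and 6 (30%) below, beside 35.5% and 24.6%. The acetyltransferases, which oppose the deacetylases, had medians of 0.24 and 0.35, with 4 of 10 (40%) above and 0 below. Kat2a (GCN5) had the largest ratio of that list (0.88 ± 0.04 and 1.12 ± 0.13). In the other lists the largest ratios were those of Sirt5 (0.73 ± 0.28), Kdm4b (0.92 ± 0.24), Phc2 (0.98 ± 0.10) and Gadd45b (0.73 ± 0.14), each against the unbound library.

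Cocaine and saline IP libraries were compared to ask whether ribosome-bound RNA of these genes differed after cocaine self-administration. No gene of the 34 tested passed the threshold (edgeR quasi-likelihood test, 5 against 3, Benjamini-Hochberg adjustment over 13800 genes), with a smallest adjusted p of 0.9998 among them, and the share of all 13800 genes that passed was 0%. At an unadjusted p under 0.05 the counts were 2 of 34 (5.88%) and 295 of 13800 (2.14%). With DESeq2, 0 genes passed the adjusted threshold, and 443 of 20519 passed the unadjusted one, 2 of them among the 35 genes. The log2 differences ranged from -0.35 to 0.38, 20 positive and 14 negative, with a median of 0.04 beside 0.01 over all genes. Their standard errors were 0.10 to 0.28. The 95% interval lay within 2-fold of no change for 34 of 34 genes and within 1.5-fold for 23.

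Hdac4 (chr1:91928779-92195699), a class IIa deacetylase, was at 13.5, 13.9 and 13.6 CPM in saline IP and at 18.0, 14.9, 17.6, 17.8 and 15.6 in cocaine IP. All 5 cocaine libraries were above all 3 saline libraries, and the log2 difference was 0.31 (SE 0.13, unadjusted p = 0.0328, adjusted p = 0.9998, edgeR). Groups did not overlap for 2 of the 34 genes (5.88%), against 2.31% of all genes tested (all cocaine above all saline libraries 0.913%, all below 1.4%). The other of these was Chd4, at 207, 191 and 191 CPM in saline IP and 191, 164, 159, 174 and 175 in cocaine IP, with a difference of -0.18 (SE 0.10). Its groups were separated only narrowly, at 191 CPM on either side.

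Ehmt2 (chr17:34898469-34914052) had the lowest unadjusted p among negative differences. It was at 29.9, 41.2 and 45.4 CPM in saline IP and at 27.5, 30.0, 35.5, 33.5 and 24.3 in cocaine IP, with a difference of -0.35 (SE 0.16, unadjusted p = 0.0485, adjusted p = 0.9998, edgeR). The groups overlapped, since saline IP library 1 lay below 3 of the cocaine libraries. The next in rank were Smarcc2 (-0.23, SE 0.11) and Hdac6 (-0.26, SE 0.17) on the negative side, and Tet3 (0.32, SE 0.20), Hdac10 (0.38, SE 0.28) and Dnmt3a (0.21, SE 0.15) on the positive side, all with overlapping groups. Without cocaine IP library 5 the difference was 0.19 for Tet3 and 0.11 for Dnmt3a, and without saline IP library 1 that of Dnmt3a was 0.13.

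For the genes that stood apart in captured RNA, treatment differences did not pass the test, with values of 0.13 (SE 0.12) for Hdac2, -0.01 (SE 0.27) for Hdac7, 0.22 (SE 0.20) for Hdac9 and -0.07 (SE 0.25) for Ezh2. Hdac5 differed by 0.10 (SE 0.18) and Hdac3 by -0.12 (SE 0.12). Among the 129 other chromatin genes, 0 passed the adjusted threshold in edgeR and 1 had an unadjusted p under 0.05, Phc2, a polycomb subunit (-0.26, SE 0.11, unadjusted p = 0.0338). Hat1, an acetyltransferase, had the smallest unadjusted p among positive differences (0.24, SE 0.12).

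Same-numbered saline and cocaine IP libraries deviated together, so the fit with replicate number as a block (numbers 1, 2 and 4, 6 libraries) is given beside the unpaired one. No gene of the 34 passed the adjusted threshold (smallest adjusted p = 0.600, edgeR), and 3 had an unadjusted p under 0.05, Hdac4 (0.31, SE 0.12), Ehmt2 (-0.33, SE 0.10) and Smarcc2 (-0.17, SE 0.08). Over all genes, 903 of 13580 had an unadjusted p under 0.05 with the block, and the smallest adjusted p was 0.0599 (edgeR). Without the block, the same 6 libraries gave 141 of 13580, with 0 of the 34 genes among them. The 3 of 34 genes are to be read beside the 903 of 13580, not beside the share in all 8 libraries. Tet3 and Dnmt3a, at 0.02 each, were near no difference among these 6 libraries. Each same-numbered pair joins a saline and a cocaine library of different lane codes, so treatment and lane cannot be told apart within a pair.

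The lane code in the labels divides the cocaine IP libraries into 3 of lane 4 and 2 of lane 6, while the saline IP libraries are of lanes 7 (2) and 6 (1). Among cocaine IP libraries, lane 6 holds numbers 1 and 2 and lane 4 numbers 3 to 5. Lane and replicate number therefore cannot be told apart in the differences below. Between lanes, among cocaine IP libraries alone, 0 of 13746 genes passed an adjusted p under 0.05 and 5.41% had an unadjusted p under 0.05, against 5 of the 34 members (14.7%), all higher in lane 4. Lanes did not overlap for 10 of 34 members (29.4%) and for 22% of all genes, with 9 of the 10 higher in lane 4 and Sirt2 lower. The 9 were the 3 TET genes, Dnmt1, Dnmt3a, Kdm6b, Kmt2a, Ehmt1 and Arid1b.

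Tet3 was at 91.9, 77.7 and 101 CPM in cocaine IP libraries of lane 4 and at 60.2 and 50.1 in those of lane 6, while the saline IP libraries were at 56.3, 62.2 and 65.7. Its difference between lanes was 0.69 (SE 0.17, adjusted p = 0.862, edgeR). Tet2 differed by 0.83 (SE 0.22), Kdm6b by 0.61 (SE 0.19), Dnmt3a by 0.43 (SE 0.14) and Arid1b by 0.36 (SE 0.14). These were the 5 members with an unadjusted p under 0.05, and none passed after adjustment. Cocaine IP libraries of lane 6 did not exceed all saline IP libraries for any of these 5 genes.

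With lane as a covariate, the treatment difference of Tet3 was -0.22 and that of Dnmt3a -0.26. Without the 3 lane 4 libraries they were -0.14 and -0.081. The sign of both thus differed from that in all 8 libraries, and whether this comes from lane or from replicate number was not tested. Signs changed for 17 of 34 genes with the lane covariate. Lanes 7 and 4 each hold 1 treatment, so the treatment difference in that fit rests on lane 6, with 1 saline IP library. Values within lane 6, which holds 1 saline and 2 cocaine IP libraries, are given with no test. They restate the treatment contrast of the covariate fit and are not a second check. The difference was 0.25 for Hdac4, -0.64 for Ehmt2, -0.11 for Chd4 and -0.20 for Smarcc2. These have the same signs as in all 8 libraries, which include those of lane 6. For Tet3 it was -0.25 and for Dnmt3a -0.28.

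**Figure D4:**
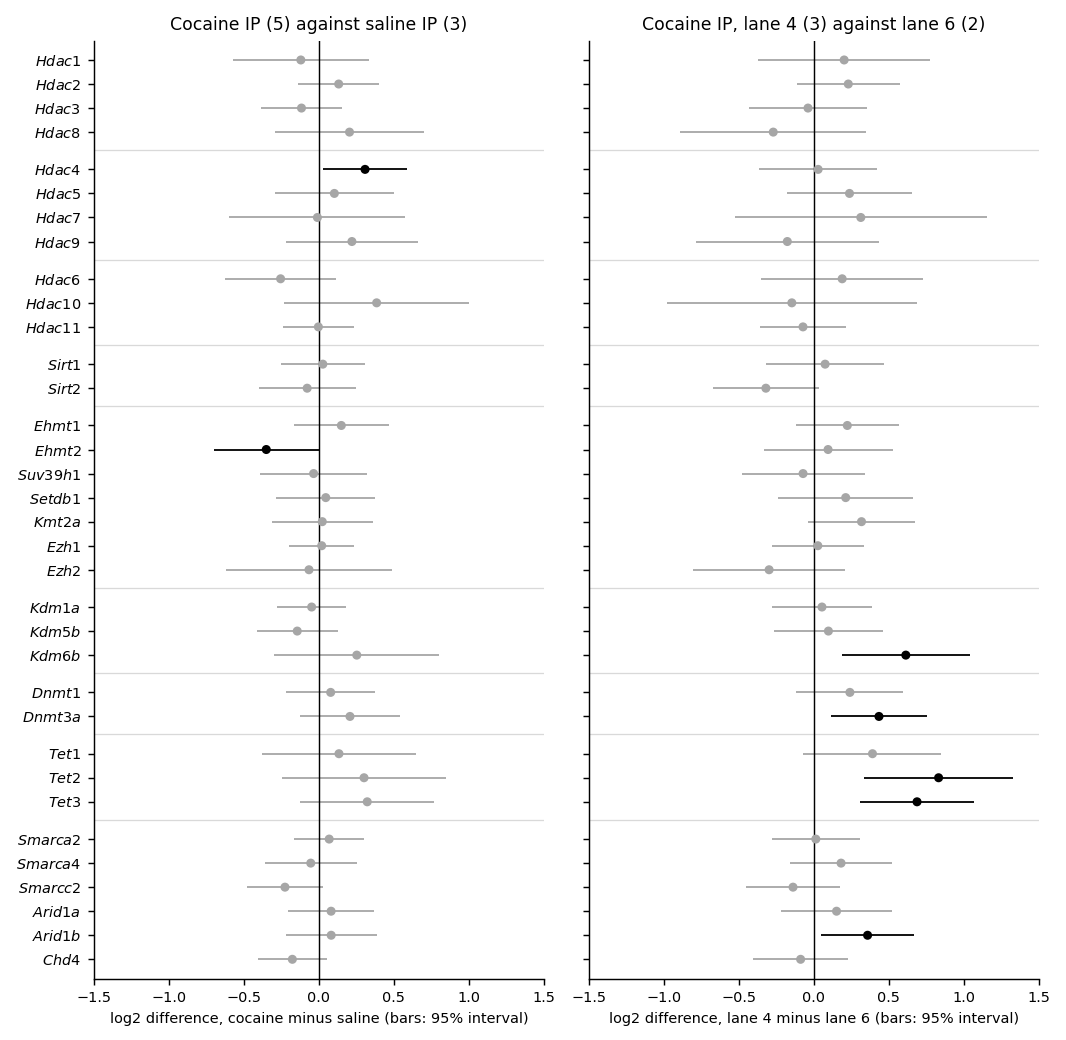
Log2 difference with its 95% interval for each of the 34 tested genes, cocaine minus saline IP on the left and lane 4 minus lane 6 among cocaine IP libraries on the right; black marks an unadjusted p under 0.05 and grey the rest, and no gene passed after adjustment in either panel. On the left Hdac4 (0.31) and Ehmt2 (-0.35) are black; on the right Kdm6b, Dnmt3a, Tet2, Tet3 and Arid1b are black and lie to the right of 0.

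**Figure D5:**
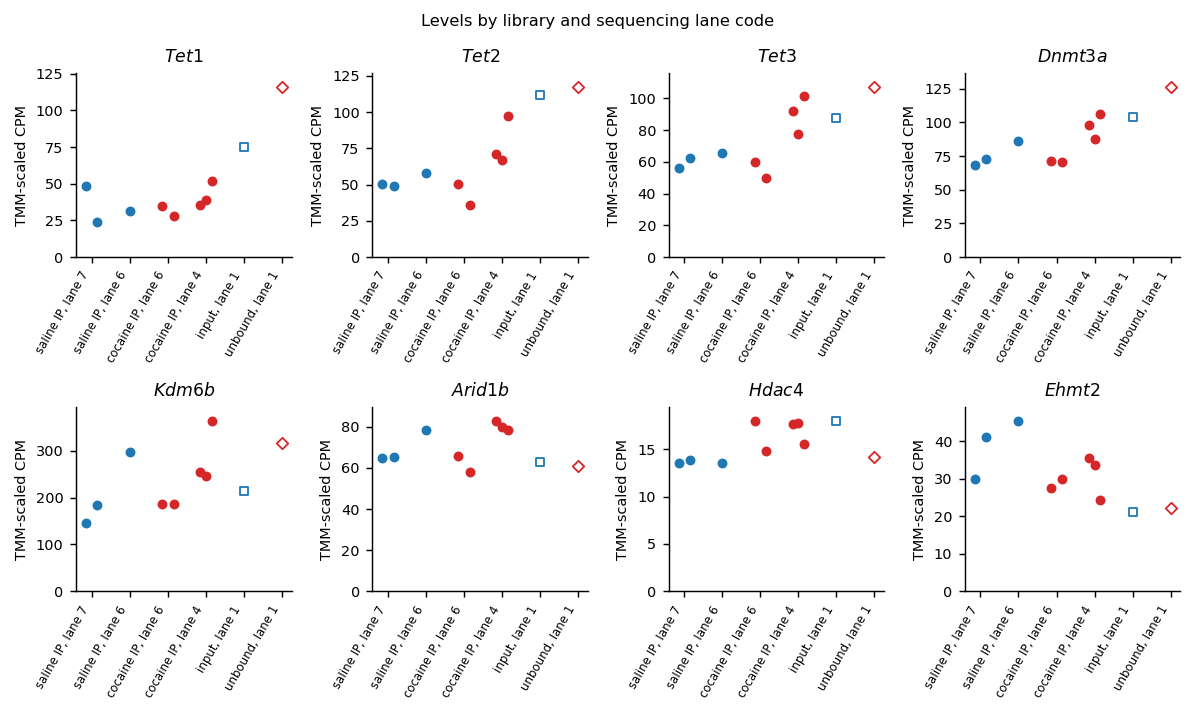
TMM-scaled CPM of 8 genes by group and lane code, 1 symbol per library, with axes starting at 0; blue is saline and red cocaine, filled circles are IP and open symbols the references. Tet2, Tet3, Dnmt3a, Kdm6b and Arid1b are higher in cocaine IP of lane 4 than of lane 6, whereas for Hdac4 both lanes of cocaine IP lie above all saline IP libraries.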

How the data were processed

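The authors deposited 1 file of raw read counts per gene symbol for each of 10 libraries. The submitters' processing notes name STAR 2.0.0e, HTSeq and build mm10; the sources used here give no HTSeq version, annotation or strand setting. Rows that name no gene stayed out of library sizes and tests (no feature: 12.9 to 14.4% of uniquely placed reads in IP libraries, 25.5% for input and 27.4% for unbound RNA). Reads of the ribosomal precursor Rn45s made up 4.67 to 7.30% of gene reads in IP libraries except cocaine IP 5 (1.50%). No pair of libraries in a group agreed within sampling noise.

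The members and gene lists were chosen with earlier results of these data known. Cocaine and saline IP libraries were compared with edgeR 4.0.16 (R 4.3.3; TMM, filterByExpr, quasi-likelihood test, two-sided, treatment only, Benjamini-Hochberg threshold 0.05), checked on simulated counts. For ratios to the single input or unbound library, 1 was added to TMM-scaled CPM before taking log2, genes averaging under 1 CPM were left out, and a call needed every IP library past 2-fold. Genes are named by a fixed rule: levels for called members and the highest member per kilobase of each role, the 4 smallest p in each direction for cocaine where none passed the threshold, and per other list the genes called in both comparisons or else the largest ratio; others called, and members in the same role, are given by value. Deviations from group means of same-numbered saline and cocaine IP libraries correlated over 9679 genes of at least 5 CPM (Pearson r 0.708, 0.627 and 0.321 for numbers 1, 2 and 4, each highest for its own number), so same-numbered libraries were treated as pairs, although no label explains the numbers. Exon lengths, overlaps and shared 50-base stretches come from GENCODE M21 (GRCm38; 23927 of 32531 symbols matched, 35 of 35 members), which may not be the authors' annotation. Alternatives were DESeq2 1.42.0 and its size factors, library size alone, other filters, pseudocounts of 0.1 and 5 CPM, a 1.5-fold limit, the replicate block, lane as a covariate, and leaving out libraries.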

Additional observations from a re-analysis of the deposited data

How the results depend on the processing

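The 8 member differences named for cocaine against saline were chosen by their small p in these libraries, and the alternatives refit the same libraries. Agreement in direction was therefore likely in advance and is no separate support. The direction was kept in 123 of 127 fits. The exceptions were Tet3 (-0.22) and Dnmt3a (-0.26) with lane as a covariate, and the same genes without the 3 lane 4 libraries (-0.14 and -0.081). No gene passed the adjusted threshold in that comparison under any of 16 alternatives, the replicate block included (smallest adjusted p over all genes 0.0599, with 903 genes at an unadjusted p under 0.05), and leaving out 1 library gave 186 to 598 genes at an unadjusted p under 0.05 and 0 to 3 members.

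Against the input, scaling by library size alone gave 70 genes higher and 1823 lower of 12988 tested, 5 members lower and a member median of -0.20. A pseudocount of 5 CPM gave 107 genes higher, 798 lower and 1 member lower (Hdac7), a minimum of 5 CPM 677 genes lower, and a 1.5-fold limit 1354 genes higher, 3 members higher and 6 lower. Leaving out 1 saline IP library gave 217 to 337 genes higher, the most without saline IP 1, and 4 members lower each time. Under the 1.5-fold limit and without 1 saline IP library, the count of all genes lower stayed within 1.5 times the main count of 1521. That range is too wide to tell the 6 and 4 members lower from the share of all genes, so these counts are not read as particular to the members. Against the unbound library, library size alone gave 247 genes higher and a member median of -0.027. A pseudocount of 5 CPM gave 293 genes higher and 769 lower, a minimum of 5 CPM 567 lower, no filter 1913 lower, and a 1.5-fold limit 1715 higher, 1902 lower and 1 member higher. Leaving out 1 cocaine IP library gave 477 to 705 genes higher and 0 to 1 members higher (Hdac2, without cocaine IP 1). Fewer genes are tested under a stricter minimum, and a larger pseudocount shrinks ratios of low genes; otherwise the cause was not tested. Between lanes, leaving out 1 library gave 0 to 407 genes at an adjusted p under 0.05, the 407 without cocaine IP 2, when lane 6 holds 1 library that is assumed to vary like the others, and 0 members each time. Depth limits Dnmt3b, whose reads in IP libraries number 1 to 9.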
